A study of Mus musculus with 12 samples.

Results

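Ccl6, Ccl9 and Ccr1 are 3 of the 734 endogenous genes of a NanoString nCounter innate immune panel, chosen by name as 2 chemokine ligands and the receptor they share. Each RNA is counted directly through a barcoded probe, with no amplification step. It was run on total RNA of the post-caudal lung lobe of mice, in 12 libraries.

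Chemokines are small secreted proteins that direct the movement of leukocytes, and they act through receptors that signal through heterotrimeric G proteins. CCL6 and CCL9 are mouse CC chemokines made by macrophages and other myeloid cells; cutting their amino terminus by proteases at inflamed sites raises their activity on CCR1, which is carried by monocytes, macrophages, neutrophils and eosinophils. In mice, CCL6 and CCR1 have been linked to lung inflammation driven by type 2 cytokines.

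KO_DRA (n = 5, replicates 8 to 12) are lungs of mice whose genotype is given as Chil4 KO, and which received DRA allergens. B6_DRA (n = 5, replicates 3 to 7) are lungs of Chil4 wild type mice given the same allergens. B6_PBS (n = 2, replicates 1 and 2) are lungs of Chil4 wild type mice given PBS. Treatment was through the nose, 2 times a week for 8 weeks in every group. What DRA stands for is not spelled out in the labels, and the mice called KO are there also called a knockdown. How that line was made and the age of the mice are not given. KO mice without allergen were not analysed here, so the genotypes can be compared under allergen alone. Chil4 encodes a chitinase-like protein of the allergic mouse lung.

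Total counts per library lay between 320290 and 658293 in KO_DRA, 367744 and 673201 in B6_DRA, and 389757 and 392701 in B6_PBS. The Chil4 count of the library labelled KO_DRA 8 was 111850, the highest of the 12 libraries. The other 4 KO_DRA libraries had 5676 to 24313 Chil4 counts, against 13020 to 89957 in B6_DRA and 4406 and 5121 in B6_PBS. In TMM-scaled CPM (counts relative to the library's total), Chil4 lay between 11008 and 254867 in KO_DRA, against 8347 and 9887 in B6_PBS, so every KO_DRA library was above both PBS libraries. KO_DRA 11 and 12, at 57320 and 32568 CPM, were also above B6_DRA 5 at 30058 CPM. Where the probe lies relative to the altered part of the gene is not given, so these counts could not check the KO label. Comparisons of KO_DRA levels are given with and without the library labelled KO_DRA 8. All 3 genes were above background in all 12 libraries, with background set at 2 SD over the mean of a library's negative control probes. The weakest value was a Ccr1 count 9.52 times its library's background. In whole lung RNA, fewer cells of a type and less RNA per cell cannot be told apart.

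Ccl6 and Ccl9 are direct neighbours on chromosome 11 and Ccr1 lies on chromosome 9, in the RefSeq annotation of GRCm38.p6. The 250 bases upstream of the annotated starts of Ccl6 (chr11:83593088-83593337, minus strand) and Ccl9 (chr11:83578637-83578886, minus strand) are shown because the ligands moved together and share a stretch there. Capitals mark the upstream part of that shared stretch, and the sequences are RefSeq's, 5′ to 3′.
Ccl6: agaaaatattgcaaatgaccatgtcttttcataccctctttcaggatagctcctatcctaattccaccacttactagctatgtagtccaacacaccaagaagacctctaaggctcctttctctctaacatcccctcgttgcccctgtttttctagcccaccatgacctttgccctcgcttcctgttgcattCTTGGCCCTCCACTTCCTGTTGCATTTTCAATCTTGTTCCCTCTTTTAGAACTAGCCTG
Ccl9: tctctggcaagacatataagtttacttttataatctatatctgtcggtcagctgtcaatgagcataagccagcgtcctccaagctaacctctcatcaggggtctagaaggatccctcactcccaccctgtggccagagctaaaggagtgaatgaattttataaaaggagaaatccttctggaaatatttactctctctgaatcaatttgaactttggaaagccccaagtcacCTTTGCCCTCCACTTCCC
The best local alignment of the 300-base windows around the starts covered bases -59 to 15 of Ccl6 and -18 to 49 of Ccl9, counted from each start. In it, 59 of 74 columns were identical (79.7%). Its score of 71 was the highest that either gene reached against 554 other panel genes with a promoter in the RefSeq table. The next scores were 28 for Ccl6 (with Mrc1) and 31 for Ccl9 (with Gpr65), while the Ccr1 promoter scored 23 against Ccl6 and 16 against Ccl9. The 14 letters cttcctgttgcatt stood at both -73 to -60 and -47 to -34 of Ccl6, and 3.30% of 32851 RefSeq promoters held an exact repeat of that length or more in their upstream 250 bases.

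Short motifs were searched on both strands of those 250 bases. AGGAAG, the core bound by ETS factors, stood 2 times upstream of Ccl6, once in each copy of the repeat, and in neither of the other genes; 29.5% of all promoters hold it. The AP-1 motif, TGA and TCA with 1 base between, stood 1 time upstream of Ccl9 (6.75% of promoters hold it), and TATAAA stood there at 3 positions, of which 2 overlap on opposite strands (12.4% hold it). No match was found in any of the 3 genes to the STAT-type motifs, TTC and GAA with 4 bases between (5.85% of promoters) or with 3 (7.02%), or to the C/EBP-type motif TTGCNNAA (9.56%).

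All 3 genes rose with allergen in wild type lung. The question was what chronic allergen did to the ligands and to their receptor when Chil4 was intact. Ccl6 stood at 8644, 7371, 2486, 9063 and 10086 CPM in B6_DRA replicates 3 to 7, against 834 and 896 CPM in B6_PBS. Each allergen-treated library lay above both PBS libraries, and replicate 5 was the lowest of the 5. Ccl6 was 8.70-fold higher in B6_DRA (log2 fold change 3.12, SE 0.91), with an adjusted p of 0.0268 in edgeR's quasi-likelihood test.

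Ccl9 stood at 6718, 2287, 1256, 8998 and 5988 CPM in B6_DRA replicates 3 to 7, against 517 and 441 CPM in B6_PBS. Again no library of one group reached the other, but replicates 4 and 5 were well below the other 3 B6_DRA libraries. Ccl9 was 10.5-fold higher in B6_DRA (log2 fold change 3.40, SE 1.08, edgeR adjusted p 0.0319). This call rests on few libraries: the adjusted p was between 0.0546 and 0.0564 without B6_DRA 3, 6 or 7 and was 0.174 and 0.150 without B6_PBS 1 and B6_PBS 2. The calls of Ccl6 and Ccr1 were likewise lost without either PBS library, at adjusted p values of 0.171 and 0.115 for Ccl6 and 0.155 and 0.0862 for Ccr1.

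The receptor moved less. Ccr1 stood at 429, 341, 231, 509 and 552 CPM in B6_DRA replicates 3 to 7, against 118 and 135 CPM in B6_PBS. The groups did not overlap, and replicate 5 was once more the lowest allergen-treated wild type library. Ccr1 was 3.25-fold higher in B6_DRA (log2 fold change 1.70, SE 0.44, edgeR adjusted p 0.0193).

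Changes were common on this panel: 41.8% of the 665 genes tested passed in either direction. As higher in B6_DRA than in B6_PBS 24.1% passed, and as lower 17.7%. In 31.6% every B6_DRA library lay above both B6_PBS libraries. Among the 665 log2 fold changes, ordered from the highest, Ccl9 was at place 16, Ccl6 at place 18 and Ccr1 at place 65, around a median of 0.01 over all genes.

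**Figure D1:**
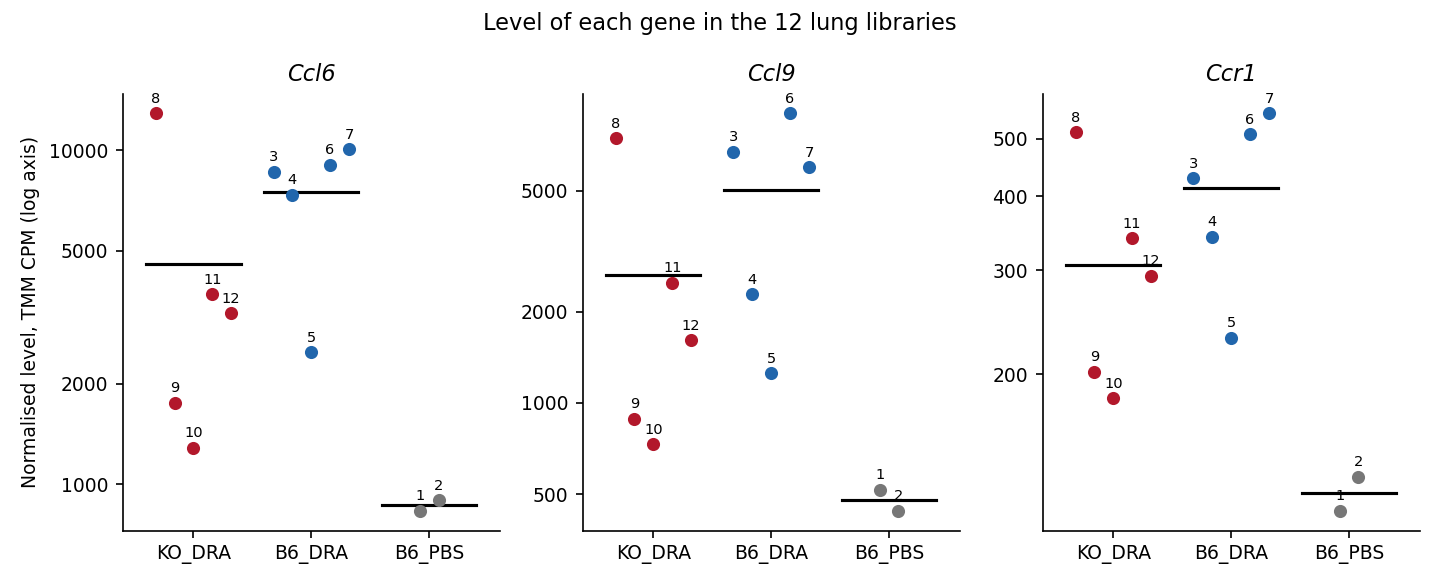
Level of Ccl6, Ccl9 and Ccr1 (TMM-scaled CPM, log axis) in each library of KO_DRA, B6_DRA and B6_PBS; points are single libraries marked with their replicate number and black lines are group means. The library labelled KO_DRA 8 lies apart from KO_DRA 9 to 12 in all 3 genes, at 12906 CPM for Ccl6, and the PBS libraries are the lowest of the 12.

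The comparison of genotypes under allergen asks whether mice labelled Chil4 KO differed from wild type mice in these genes. Means were lower in KO_DRA for all 3, but no difference passed the test while the library labelled KO_DRA 8 was kept. Without that library, Ccl6 and Ccl9 passed as lower in KO_DRA and Ccr1 did not. The library was set apart for its Chil4 count, and Chil4 is not independent of these genes. Over the 10 allergen-treated lungs its r was 0.992 with Ccl6, 0.973 with Ccl9 and 0.974 with Ccr1. Leaving the library out thus also removed the highest KO_DRA value of each gene, so the results without it are given as a description.

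Ccl6 stood at 12906 CPM in the library labelled KO_DRA 8 and at 1756, 1289.7, 3706 and 3257 CPM in KO_DRA replicates 9 to 12. It averaged 4583 ± 4760 CPM in KO_DRA and 7530 ± 2983 CPM in B6_DRA (SD, n = 5 each), and 2502 ± 1161 CPM in KO_DRA without library 8 (SD, n = 4). The library labelled KO_DRA 8 was above every B6_DRA library, KO_DRA 9 and 10 were below every one, and KO_DRA 11 and 12 lay between. The log2 fold change of KO_DRA over B6_DRA was -0.72 (SE 0.57, edgeR adjusted p 0.517) with all libraries and -1.59 (SE 0.40, edgeR adjusted p 0.0377) without KO_DRA 8.

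Ccl9 stood at 7451 CPM in the library labelled KO_DRA 8 and at 888, 731, 2487 and 1613 CPM in KO_DRA replicates 9 to 12. It averaged 2634 ± 2781 CPM in KO_DRA and 5049 ± 3212 CPM in B6_DRA (SD, n = 5 each), and 1430 ± 803 CPM in KO_DRA without library 8 (SD, n = 4). The groups overlapped, since KO_DRA 11 and 12 lay above B6_DRA 5 and KO_DRA 9 and 10 lay below all of B6_DRA. The log2 fold change was -0.94 (SE 0.66, edgeR adjusted p 0.488) with all libraries and -1.82 (SE 0.55, edgeR adjusted p 0.0444) without KO_DRA 8.

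Ccr1 stood at 513 CPM in the library labelled KO_DRA 8 and at 202, 182, 339 and 294 CPM in KO_DRA replicates 9 to 12. It averaged 306 ± 132 CPM in KO_DRA and 412 ± 129 CPM in B6_DRA (SD, n = 5 each), and 254 ± 74.6 CPM in KO_DRA without library 8 (SD, n = 4). KO_DRA 9 and 10 again lay below every B6_DRA library, and the other 3 fell within the range of B6_DRA. The log2 fold change was -0.43 (SE 0.30, edgeR adjusted p 0.481) with all libraries and -0.70 (SE 0.26, edgeR adjusted p 0.0771) without KO_DRA 8.

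Over all 665 genes, 0 (0% of those tested) passed in KO_DRA against B6_DRA in edgeR's quasi-likelihood test, while 84 had an unadjusted p under 0.05; DESeq2 called 1 gene and limma-voom 0. Without KO_DRA 8, 13.6% of 664 genes passed as lower and 4.52% as higher. Even then, KO_DRA and B6_DRA overlapped in each of the 3 genes. Groups that did not overlap were rare, at 0.602% of genes in each direction with all libraries, and 2.86% lower and 4.21% higher without KO_DRA 8.

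Set against B6_PBS, where genotype and treatment differ together, every KO_DRA library was above both PBS libraries in all 3 genes, as was the case for 23% of the 665 genes. Ccl6 was 5.30-fold higher (edgeR adjusted p 0.137), Ccl9 5.49-fold higher (adjusted p 0.156) and Ccr1 2.42-fold higher (adjusted p 0.132), and none passed the test in edgeR. Without KO_DRA 8 these values were 2.89-fold, 2.98-fold and 2.0-fold, with edgeR adjusted p values of 0.164, 0.239 and 0.164. Of all genes, 3.01% passed as higher in this comparison and 1.36% without KO_DRA 8. It shares its KO_DRA and B6_PBS libraries with the 2 comparisons above. DESeq2 did call Ccl6 and Ccr1 here, at adjusted p values of 0.0156 and 0.0368, and edgeR called Ccr1 (adjusted p 0.0481) once KO_DRA 10 was left out.

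In each gene the group means stood in the order B6_DRA, KO_DRA, B6_PBS from high to low. The difference between the first 2 did not exceed their spread with all libraries, and neither did the edgeR test of KO_DRA over B6_PBS pass. The spread of the ligands between lungs of 1 group was above the panel's median. The SD of log2 CPM was 1.28 for Ccl6 and 1.34 for Ccl9 in KO_DRA, around a median of 0.30 over 665 genes, and 0.83 and 1.19 in B6_DRA, around a median of 0.26. Ccr1 had an SD of 0.59 in KO_DRA and 0.50 in B6_DRA. Without KO_DRA 8 the SD in KO_DRA was 0.72 for Ccl6, 0.81 for Ccl9 and 0.42 for Ccr1, around a median of 0.22. From the highest to the lowest of the 12 libraries, Ccl6 spanned 15.5-fold (12.1-fold without KO_DRA 8), Ccl9 20.4-fold and Ccr1 4.68-fold in CPM.

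Ratios of counts within a library need no scaling between libraries; because probes differ in efficiency, only their change between libraries is read. The count of Ccl6 over Ccr1 was 25.2 in the library labelled KO_DRA 8 and 8.69, 7.07, 10.9 and 11.1 in KO_DRA replicates 9 to 12. It was 20.1, 21.6, 10.8, 17.8 and 18.3 in B6_DRA replicates 3 to 7, and 7.08 and 6.66 in B6_PBS. KO_DRA 11 and 12 lay just above B6_DRA 5 and below the other B6_DRA libraries, and KO_DRA 9 and 10 lay below all of B6_DRA. The exact two-sided permutation test of KO_DRA against B6_DRA gave p = 0.151 (log2 difference -0.61). Without KO_DRA 8 the log2 difference was -0.89, with an exact permutation p of 0.0317 that was 0.190 after adjustment over the 6 ratio tests of KO_DRA. All 5 allergen-treated wild type lungs had more Ccl6 per Ccr1 than both PBS lungs, and the ratio was 2.51-fold higher in B6_DRA than in B6_PBS. The exact permutation p was 0.0476, the smallest that 5 against 2 libraries allow, and 0.429 after adjustment over the 9 ratio tests.

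Ccl9 over Ccr1 was 14.5 in the library labelled KO_DRA 8 and 4.39, 4.01, 7.33 and 5.49 in KO_DRA replicates 9 to 12. It was 15.7, 6.70, 5.44, 17.7 and 10.9 in B6_DRA replicates 3 to 7, and 4.39 and 3.28 in B6_PBS. The library labelled KO_DRA 8 was above every B6_DRA lung for Ccl6 over Ccr1 and beside the high ones for Ccl9 over Ccr1. B6_DRA 4 was the highest of its group for Ccl6 over Ccr1 and the second lowest for Ccl9 over Ccr1. The log2 difference between KO_DRA and B6_DRA was -0.68 (exact permutation p = 0.190), and without KO_DRA 8 it was -0.98 (exact permutation p = 0.0714, 0.214 after adjustment). The ratio was 2.68-fold higher in B6_DRA than in B6_PBS, with p = 0.0952 in the exact permutation test and 0.429 after adjustment.

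The ratio of the ligands to each other differed little between the group means. Ccl9 over Ccl6 lay between 0.495 and 0.671 in KO_DRA, between 0.310 and 0.993 in B6_DRA, and at 0.620 and 0.493 in B6_PBS. The spread was widest in B6_DRA, where replicate 4 had the lowest and replicate 6 the highest ratio of the 12 libraries. The log2 ratio of KO_DRA differed from that of B6_DRA by -0.08 (exact permutation p = 0.810) and from that of B6_PBS by 0.02 (exact permutation p = 0.905). That of B6_DRA differed from B6_PBS by 0.10 (exact permutation p = 0.857). These 3 differences changed sign when certain single libraries were left out. None of the 9 ratio tests passed after adjustment, nor did any of the 6 with KO_DRA once library 8 was left out. The tests against B6_PBS had little room to pass. With 5 against 2 libraries the smallest exact permutation p is 0.0476, which passes only if all 9 p-values are under 0.05. With 4 against 2, no p under 0.05 is possible, so no conclusion is drawn from those tests.

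**Figure D2:**
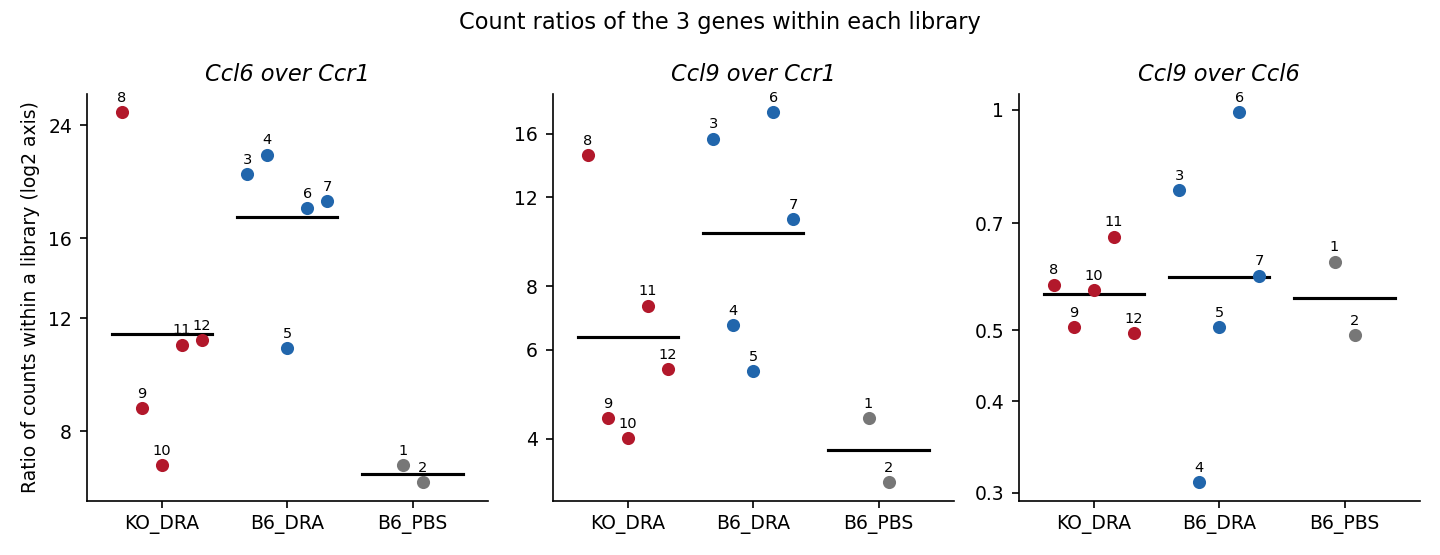
Ratios of counts of Ccl6 over Ccr1, Ccl9 over Ccr1 and Ccl9 over Ccl6 within each library (log2 axis) for KO_DRA, B6_DRA and B6_PBS; points are libraries with their replicate number and black lines are geometric means. Ligand over receptor is 6.66 and 7.08 for Ccl6 in the PBS lungs and 10.8 or more in B6_DRA, while Ccl9 over Ccl6 has its lowest value, 0.310, and its highest, 0.993, both in B6_DRA.

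Across the 10 allergen-treated lungs the 3 genes rose and fell together. Pearson's r of log2 CPM was 0.947 for Ccl6 with Ccl9, 0.966 for Ccl6 with Ccr1 and 0.973 for Ccl9 with Ccr1, with permutation p values of 3e-05, 2e-05 and 3e-05 (100000 draws), which were 3e-05 in each case after adjustment over the 3 pairs. Spearman's rho was 0.927, 0.988 and 0.903 for the same pairs, with adjusted permutation p values of 0.00045, 6e-05 and 0.00088. Without the 2 libraries farthest from the median, r was 0.90, 0.926 and 0.964. On deviations from the mean of each genotype r was 0.933, 0.960 and 0.967, and without KO_DRA 8 it was 0.938, 0.963 and 0.968. Groups of 5 were too small for a value within each genotype. The points share library depth and scaling, and the largest step between neighbouring libraries in order of level split them differently in each gene: 5 below and 5 above for Ccl6 (a 1.99-fold step), 6 and 4 for Ccl9 (2.41-fold) and 3 and 7 for Ccr1 (1.27-fold).

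Many panel genes followed the same order of lungs, so a high r is not rare here. Of the 664 other genes tested, 10.4% had an r above 0.9 with Ccl6, 8.89% with Ccl9 and 7.53% with Ccr1, while the median r was close to 0 for each. The genes most like Ccl6 were Chil3 (r = 0.995) and Chil4 (0.992), both chitinase-like genes, Clec7a (0.988), the beta-glucan receptor Dectin-1, Cybb (0.987), a subunit of the phagocyte NADPH oxidase, and Itgb2 (0.984), the beta chain of leukocyte integrins. Those most like Ccl9 were the cysteine protease Ctss (0.991), the macrophage elastase Mmp12 (0.982), Mmp19 (0.979), Clec7a (0.977) and the arginine-degrading enzyme Arg1 (0.975). Those most like Ccr1 were Clec7a (0.977), Chil3 (0.975), Chil4 (0.974), Ccl9 (0.973) and Ccl6 (0.966). Both ligands were thus among the 5 closest genes to their receptor, but the receptor was at place 20 for Ccl6 and at place 7 for Ccl9, and Ccl9 was at place 36 for Ccl6.

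Chil4 itself, the gene named in the KO label, averaged 74232 ± 102604 CPM in KO_DRA and 140602 ± 73304 CPM in B6_DRA (SD, n = 5 each), and 9117 ± 1089 CPM in B6_PBS (SD, n = 2). Without KO_DRA 8 it averaged 29073 ± 21005 CPM in KO_DRA (SD, n = 4). The lower mean in KO_DRA was not particular to Chil4. The log2 fold change of KO_DRA over B6_DRA was -0.92 for Chil4 and -0.86 for Chil3, which the label does not name (edgeR adjusted p 0.530 and 0.564). Without KO_DRA 8 it was -2.27 and -2.26. The r of Chil4 over the 10 allergen-treated lungs was 0.992 with Ccl6, 0.973 with Ccl9 and 0.974 with Ccr1, as a description, and 0.991, 0.968 and 0.971 over the 9 without KO_DRA 8. KO_DRA 12 and B6_DRA 5, picked after their values were seen as the pair of opposite label nearest in Chil4 (32568 and 30058 CPM), had 3257 and 2486 CPM of Ccl6, 1613 and 1256 CPM of Ccl9, and 294 and 231 CPM of Ccr1.

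**Figure D3:**
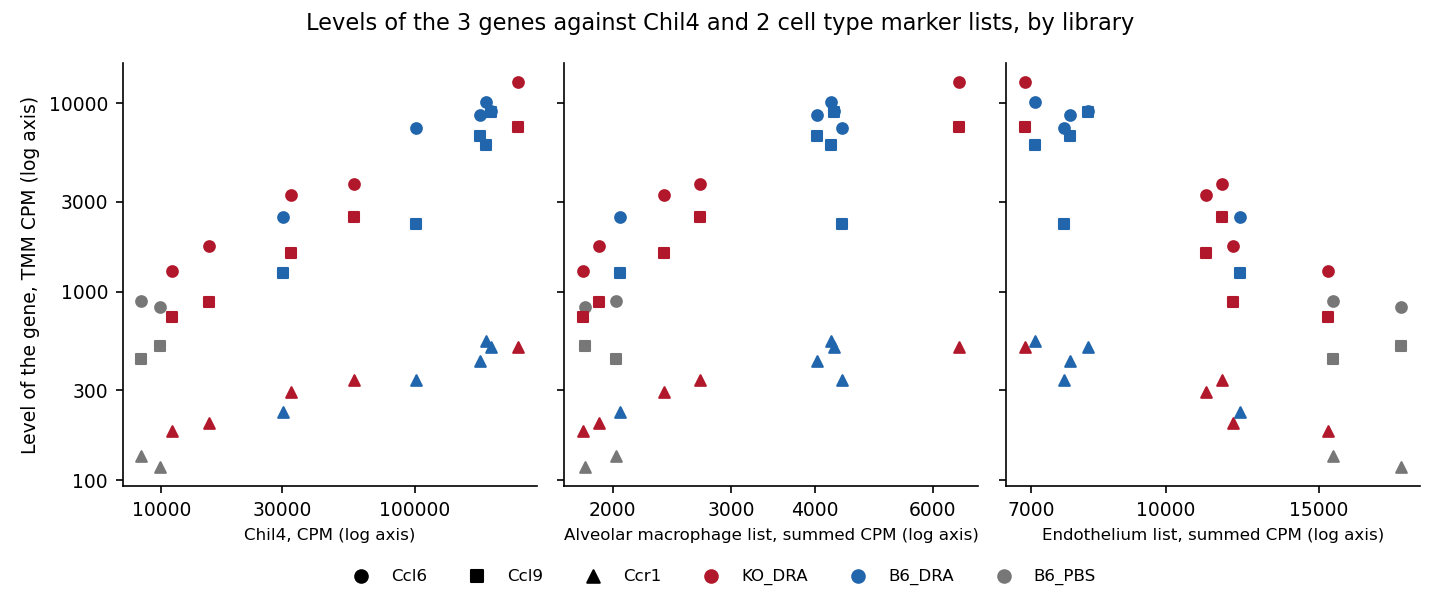
Levels of Ccl6, Ccl9 and Ccr1 (CPM, log axis) against Chil4 (CPM, log axis) and the summed levels of an alveolar macrophage and an endothelium marker list (CPM, log axes) in KO_DRA, B6_DRA and B6_PBS libraries; each point is 1 gene in 1 library. The 3 genes go up with Chil4 (r between 0.973 and 0.992 over the 10 allergen-treated lungs) and down with the endothelium list (r between -0.973 and -0.878).

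The sums of some cell type marker lists moved with the 3 genes as well. The summed level of 6 of 9 listed alveolar macrophage markers on the panel was 1806 to 6572 CPM in KO_DRA, 2048 to 4392 CPM in B6_DRA, and 1819 and 2020 CPM in B6_PBS. The highest value was that of the library labelled KO_DRA 8, and the other 4 KO_DRA libraries were at 1806 to 2699 CPM. Only Itgax and Mrc1 of these 6 passed as higher in B6_DRA than in B6_PBS, as did 24.1% of all genes tested. Marco had the opposite direction, at 101 ± 126 CPM in B6_DRA (SD, n = 5) and 306 ± 47.3 CPM in B6_PBS (SD, n = 2). Its fold change was 0.345 (edgeR adjusted p 0.161), and 2.17 in KO_DRA over B6_DRA (edgeR adjusted p 0.454). Siglecf was at 1.13-fold in B6_DRA over B6_PBS (edgeR adjusted p 0.542). The list's r over the 10 allergen-treated lungs was 0.970 with Ccl6, 0.894 with Ccl9 and 0.908 with Ccr1, and 0.979, 0.894 and 0.918 without KO_DRA 8.

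Eosinophil markers, all 8 on the panel, summed to 496 to 3981 CPM in KO_DRA, 1785 to 8567 CPM in B6_DRA, and 351 and 375 CPM in B6_PBS. The upper KO_DRA value was that of the library labelled KO_DRA 8; the other 4 were at 496 to 1542 CPM, below every B6_DRA library. Of these, Epx was not above background in any library, and Prg2, Il5ra, Rnase2a and Ear6 were not above it in either PBS library. Rnase2a was the largest part of the sum under allergen, at 3171 CPM on average in B6_DRA and 683 CPM in KO_DRA. The r of the sum was 0.909 with Ccl6, 0.957 with Ccl9 and 0.913 with Ccr1 (0.926, 0.967 and 0.917 without KO_DRA 8). By r, Ccl9 thus lay closer to this sum, led by Rnase2a, and Ccl6 closer to the alveolar macrophage sum. Siglecf is in both lists, and the difference between these values was not tested.

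Monocyte and interstitial macrophage markers (11 of 12 on the panel) summed to 14042 to 17997 CPM in KO_DRA, 14486 to 18222 CPM in B6_DRA, and 13031 and 13774 CPM in B6_PBS, with r of 0.833, 0.843 and 0.861 for Ccl6, Ccl9 and Ccr1. The top KO_DRA value was again library 8, and the other 4 were at 14042 to 15916 CPM. The sum hides a split: of the 11 markers, 7 passed as higher in B6_DRA than in B6_PBS and 1, Ly6c1, as lower. Ly6c1 was the largest part of the sum, at 6499 CPM on average in B6_DRA and 9076 CPM in B6_PBS (edgeR adjusted p 0.0203). C1qa and C1qb were 3.61-fold and 3.96-fold higher in B6_DRA. Endothelium markers (4 of 8 on the panel) ran the other way, at 6882 to 15360 CPM in KO_DRA, 7068 to 12182 CPM in B6_DRA, and 15566 and 18658 CPM in B6_PBS, with r of -0.973, -0.878 and -0.908. Here library 8 was the lowest of KO_DRA, and the other 4 were at 11144 to 15360 CPM. All 4, namely Cdh5, Tek, Flt1 and Thbd, fell in B6_DRA against B6_PBS, where 17.7% of all genes tested passed as lower.

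Neutrophil markers (8 of 10 on the panel) summed to 3441 to 6659 CPM in KO_DRA, 1380 to 9525 CPM in B6_DRA, and 3189 and 5568 CPM in B6_PBS, with r of -0.151, -0.280 and -0.115. Elane and Camp were not above background in any library, nor were Ly6g and Mpo in B6_DRA or B6_PBS. Dendritic cell markers (6 of 9 on the panel) had r of 0.713, 0.580 and 0.626, T cell markers (2 of 6) 0.307, 0.368 and 0.385, and mast cell and basophil markers (4 of 6) -0.837, -0.816 and -0.783. That last sum was mostly Kit, at 206 CPM on average in B6_DRA and 236 CPM in KO_DRA. Kit was the only 1 of the 4 above background in every library of these 2 groups, so the r is largely that of Kit. Of 10 epithelial markers only Cdh1 is on the panel, so the epithelium of these lungs could not be checked further. The part of these markers in the levels of the 3 genes was not tested.

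The other listed ligands of mouse CCR1 did not all follow. Of Ccl3, Ccl5 and Ccl7, 1 of 3 passed as higher in B6_DRA than in B6_PBS (median log2 fold change 0.89, with 24.1% of all genes passing). That was Ccl7, which draws monocytes, with 63.2 ± 11.1 CPM in B6_DRA (SD, n = 5) and 19.1 ± 5.15 CPM in B6_PBS (SD, n = 2), 3.29-fold higher (edgeR adjusted p 0.0156). Ccl3 (MIP-1 alpha) was at 1.86-fold (edgeR adjusted p 0.387) and Ccl5 (RANTES) at 0.732-fold (edgeR adjusted p 0.106). Against B6_DRA, KO_DRA passed in 0 of 3. Without KO_DRA 8, Ccl3 (log2 fold change -1.70, edgeR adjusted p 0.0403) and Ccl7 (-0.94, adjusted p 0.0426) fell and Ccl5 rose (0.54, adjusted p 0.0403). In that setting 13.6% of all 664 genes tested passed as lower and 4.52% as higher.

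Of 16 other CC ligands, 14 were tested and 9 passed as higher in B6_DRA than in B6_PBS, with 0 lower and a median log2 fold change of 1.68. Over all genes tested, 24.1% passed as higher and 17.7% as lower. Ccl8, which attracts monocytes and type 2 T cells, was 32.4-fold higher (edgeR adjusted p 0.00482). The eosinophil attractants Ccl11 and Ccl24 were 12.9-fold and 8.35-fold higher (edgeR adjusted p 0.0204 and 0.0306). Ccl20, the ligand of CCR6, was 5.13-fold higher, Ccl17, a ligand of CCR4, 5.03-fold and Ccl12, a monocyte attractant, 4.05-fold, with edgeR adjusted p values of 0.00748, 0.0205 and 0.0144. Set beside these, the fold changes of Ccl6 and Ccl9 were below those of Ccl8 and Ccl11 and above that of Ccl20; these differences were not tested. KO_DRA against B6_DRA passed in 0 of 14, and in 6 of 14, all lower, without KO_DRA 8, where 13.6% of all genes passed as lower. KO_DRA against B6_PBS passed in 2, Ccl8 (12-fold) and Ccl20 (3.7-fold), both higher, and in 3.01% of all genes.

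Of 12 other CC receptors considered, 8 are on the panel. In B6_DRA, 4 passed as higher than in B6_PBS and 1 as lower, with a median log2 fold change of 0.72. The shares over all genes tested were 24.1% and 17.7%. Ccr3, the eotaxin receptor of eosinophils, was 10.3-fold higher (edgeR adjusted p 0.0156) and so above Ccr1 at 3.25-fold. Ccr4 was 2.32-fold, Ccr9 1.93-fold and Ccr6 1.84-fold higher, with edgeR adjusted p values of 0.0328, 0.0449 and 0.0286. Ccrl2, an atypical receptor that binds chemerin, fell to 452 ± 12.4 CPM in B6_DRA (SD, n = 5), against 662 ± 79.2 CPM in B6_PBS (SD, n = 2), with an edgeR adjusted p of 0.0262. KO_DRA against B6_DRA passed in 0 of 8, and in 2, both lower, without KO_DRA 8, where 13.6% of all genes passed as lower.

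**Figure D4:**
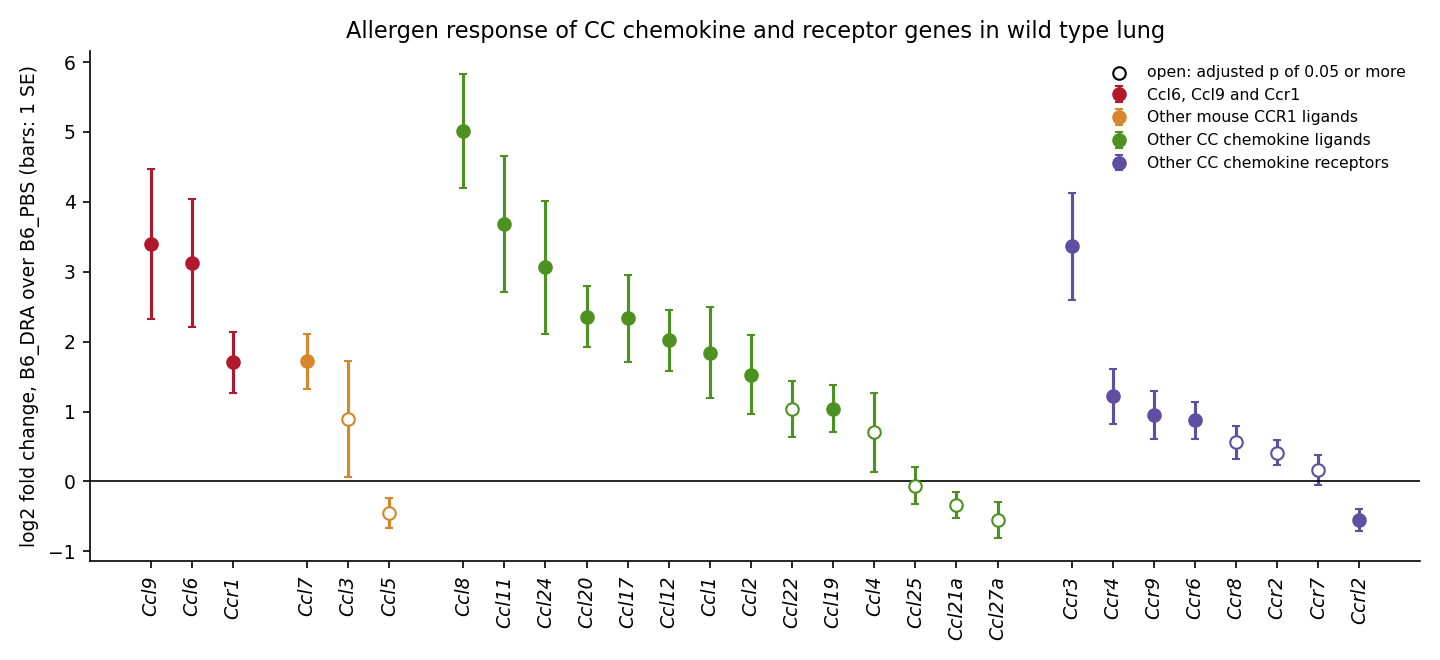
Log2 fold change of B6_DRA over B6_PBS with 1 SE for Ccl6, Ccl9 and Ccr1, the other listed CCR1 ligands, the other CC ligands and the other CC receptors that were tested; filled points passed at an adjusted p under 0.05 in edgeR. Ccl9 and Ccl6 stand at 3.40 and 3.12, and Ccr1 at 1.70 lies second among the CC receptors shown, after Ccr3 at 3.37.

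Chromosomal neighbours gave mixed values. In RefSeq order along chromosome 11 the genes run Ccl5, Ccl9, Ccl6, Ccl3, Ccl4. The inner pair rose with allergen in wild type lung, while the flanking Ccl5, Ccl3 and Ccl4 (0.732-fold, 1.86-fold and 1.62-fold, edgeR adjusted p 0.106, 0.387 and 0.317) did not pass. On chromosome 9 the order is Cxcr6, Xcr1, Ccr1, Ccr1l1, Ccr3, Ccr2. Of these, Ccr1l1 is not on the panel; Cxcr6 (2.19-fold, edgeR adjusted p 0.0121), Xcr1 (2.30-fold, 0.0204) and Ccr3 passed as higher, and Ccr2 was at 1.33-fold (edgeR adjusted p 0.0891). The differences between neighbours were not tested.

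Of 10 listed proteases that can shorten chemokines, 5 were tested and 2 passed as higher in B6_DRA than in B6_PBS (median log2 fold change 0.40). The share of all genes tested that passed as higher was 24.1%. Mmp12 was 125-fold higher (log2 fold change 6.97, SE 2.11, edgeR adjusted p 0.0292) and Ctss 4.54-fold higher (edgeR adjusted p 0.0262), and both were among the 5 genes most like Ccl9. Mmp9 was at 1.32-fold, Dpp4 at 0.729-fold and Cma1 at 0.710-fold, with edgeR adjusted p values of 0.187, 0.0611 and 0.408. Of 10 listed genes of G protein signalling only Rgs1 and Pik3cg are on the panel. Rgs1, which shuts off G protein signals, was 5.87-fold higher (edgeR adjusted p 0.0205), and Pik3cg, a lipid kinase driven by G protein beta-gamma subunits, was 2.12-fold higher (edgeR adjusted p 0.0171). KO_DRA against B6_DRA passed in none of these 7 genes. Without KO_DRA 8, Mmp12 (log2 fold change -3.46, edgeR adjusted p 0.0426), Ctss (-1.22, 0.0427) and Pik3cg (-0.55, 0.0426) passed as lower and Dpp4 (0.33, 0.0350) as higher. The shares of all 664 genes tested there were 13.6% lower and 4.52% higher.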

How the data were processed

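The authors deposited raw counts per probe for 734 endogenous, 20 housekeeping, 8 negative and 6 positive control probes, with a lowest count of 1. A deposited table and series matrix hold the counts multiplied by the authors' own factor for each library, a scaled signal. R 4.2.0, limma and edgeR are named, without roles, per the submitters' processing notes. Export settings were not given in the sources used here. Groups came from the sample names, under 1 experiment code.

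The test was that of edgeR 4.0.16 (R 4.3.3): filterByExpr (minimum count 10, total 15), TMM factors and 1 quasi-likelihood fit of all 12 libraries (9 residual degrees of freedom). This gave 665 tested genes, two-sided p-values adjusted by Benjamini-Hochberg over them and a threshold of 0.05. Depth was 320290 to 673201 counts, and 2 PBS libraries limit the precision. The edgeR p-values set a group difference against a spread between lungs that was estimated over the 3 groups together. B6_PBS, with 2 libraries, adds little to that spread. Log2 CPM used a prior count of 2, and ratios used exact permutation tests. Code was tested on simulated data. DESeq2 1.42.0, limma 3.58.1, other scalings, background subtraction and leaving out libraries were the alternatives. The genes, lists and markers were chosen with earlier results of these data known. Named genes were the 3 genes, the 5 most like each, and up to 6 per list by smallest p in B6_DRA against B6_PBS; chromosomal neighbours were added by position. A listed gene is not reported here.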

Additional observations from a re-analysis of the deposited data

Results flagged for a closer look

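Values far from the rest of their group were sought with Dixon's test in 18 sets of 5 libraries, where chance flags about 1 in 20; the critical value for 5 libraries is 0.71. In KO_DRA, the library labelled KO_DRA 8 was the high value of Ccl6 in CPM, with a gap of 0.792 of the group's range, and of Ccl9 in CPM, with a gap of 0.739. On the log2 scale the gaps of the same library were 0.542 and 0.473. In B6_DRA, replicate 5 was the low value of Ccl6 in log2 CPM, with a gap of 0.776, and of the log2 ratio of Ccl6 over Ccr1, with a gap of 0.722. Without B6_DRA 5, Ccl6 averaged 8791 ± 1124 CPM in B6_DRA (SD, n = 4).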

How the results depend on the processing

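Over 21 main results, 225 alternative values kept their direction and their side of the threshold, 9 lost the call, 5 gained it and 7 changed sign. The 7 were all of the log2 ratio of Ccl9 over Ccl6, on leaving out 1 library: it ran between -0.31 and 0.11 in KO_DRA against B6_DRA, between -0.15 and 0.18 in KO_DRA against B6_PBS and between -0.092 and 0.33 in B6_DRA against B6_PBS, with none past the threshold; the cause was not tested. Ratio tests against B6_PBS with 1 library left out are among the values counted above. They have too few regroupings for a p under 0.05, so they could not pass. Leaving out 1 library gave log2 fold changes of 2.99 to 3.35 for Ccl6, 3.08 to 3.64 for Ccl9 and 1.58 to 1.85 for Ccr1 in B6_DRA against B6_PBS. In KO_DRA against B6_DRA it gave -1.59 to -0.48 for Ccl6 and -1.82 to -0.63 for Ccl9, where leaving out KO_DRA 8 gave the call and leaving out any other library did not. For Ccr1 in KO_DRA against B6_PBS it gave 1.0 to 1.41. DESeq2 gave 2.39 for Ccl6 and 1.26 for Ccr1 in KO_DRA against B6_PBS, both called; the cause was not tested. No paired analysis was possible because no replicate number is shared between groups.

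Library size alone moved the median of all genes by -0.63 in B6_DRA against B6_PBS and by 0.34 in KO_DRA against B6_DRA. Relative to it, Ccl6, Ccl9 and Ccr1 were at 3.01, 3.23 and 1.62 against PBS, and the calls split into 57 higher and 222 lower, against 160 and 118 with TMM. Calls in B6_DRA against B6_PBS fell to 0 without either PBS library (190 and 244 genes had an unadjusted p under 0.05) and were 128, 176, 158 and 136 without B6_DRA 3, 4, 6 and 7, against 278. In KO_DRA against B6_DRA, edgeR called 120 without KO_DRA 8 and DESeq2 1, against 0. In KO_DRA against B6_PBS, against 20 calls, edgeR gave 79 without KO_DRA 10, 9 without KO_DRA 8, 2 without KO_DRA 9, 4 with library size alone and 0 without KO_DRA 11, KO_DRA 12 or either PBS library or with only the 2 groups fitted; DESeq2 gave 57 and limma-voom 13.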
